A study of Mus musculus with 180 samples.

Results

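The amino acid breakdown enzymes described here are 6 mouse genes: Aass, Hal, Tdh, Gcat, Gldc and Shmt2. They were chosen by name, after earlier results of these data were known, and their symbols were matched to gene identifiers through the feature list of the single-cell library. All 6 stood among the 12730 genes of the RNA table of embryonic stem cells (ESCs), and 5 of them among the 12735 genes of the RNA table of epiblast-like cells (EpiLCs), which did not list Hal. The differences between DBA/2J and C57BL/6J lines in RNA are what brought these genes forward, so those differences are given below as a description without a test.

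Cells break amino acids down along routes that feed carbon into the tricarboxylic acid cycle and into the folate cycle. Threonine dehydrogenase (Tdh) and glycine C-acetyltransferase (Gcat) split threonine into glycine and acetyl-CoA, the glycine decarboxylase Gldc of the glycine cleavage system passes a carbon unit of glycine to folate, and Shmt2 interconverts serine and glycine in mitochondria; mouse ESCs are known for a high activity of this threonine route and for their need of threonine. Aass carries the first steps of lysine breakdown through saccharopine, and Hal, histidine ammonia-lyase, carries the first step of histidine breakdown to urocanate, a route known mainly from liver and skin.

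The study measured RNA and open chromatin (ATAC-seq, which reads where a transposase can cut DNA) in naive ESCs and in formative EpiLCs, obtained by keeping ESCs 48 h in differentiation medium. D2 stands for lines of the inbred strain DBA/2J (D29, D55 and DAC203), B6 for lines of C57BL/6J (B41, B44 and B51), and F1 for lines of the B6D2F1/J cross of both strains (F116, F117 and F124), with RNA and ATAC in ESCs. A further 33 lines came from BXD strains, recombinant inbred mice descended from the same cross, with 1 library per line, state and assay. The chromatin proteins TRIM28 (a corepressor recruited by KRAB zinc finger proteins; 3 D2 and 3 B6 lines), P300 (a histone acetyltransferase of active enhancers) and POU5F1 (OCT4, a core pluripotency factor; both in D29, D55, B41 and B51) were mapped in ESCs. Embryoid bodies (EBs), aggregates of 750 cells that differentiate in suspension, were made from cells held 48 h in the EpiLC state, aggregated for 48 h and then rotated, and were read as 1 pooled single-cell library labelled as a mixture of both strains. Each replicate of D2, B6 and F1 is a separate line, and the p-values of comparisons between these groups therefore rest on line-to-line spread. Per-line values below run in the order D29, D55, DAC203, then B41, B44, B51, with F116, F117, F124 placed first where F1 lines are given.

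RNA values are the authors' normalized signal, whose library totals ran from 902250 to 1115270 over the 39 ESC libraries; the read depth behind them is unknown, and ESC and EpiLC tables were scaled separately, so levels are not tested between states. Reads in regions numbered 16277662 to 23095959 in the ATAC libraries of D2 and B6 ESC lines, 17195098 to 24346475 in those of their EpiLCs and 5634327 to 17092029 in the TRIM28 libraries, of which D55 was the deepest. The summed RNA signal of 13 pluripotency transcription factors was 5044 to 5219 in D2 ESCs and 4931 to 5202 in B6 ESCs. Fibroblast feeder markers, 17 of 18 listed genes, summed to 3620 to 3955 in D2 ESCs and 3584 to 4997 in B6 ESCs. The 4 of 12 primitive endoderm markers in the ESC table summed to 134 to 154 in D2 ESCs and 94.7 to 119 in B6 ESCs, without overlap. Gata6, Sox17, Sox7, Foxa2, Afp, Amn, Cubn and Ttr were not in that table. In bulk RNA, fewer cells of a type and less RNA per cell cannot be told apart. In EpiLCs the summed signal of the 12 of 13 pluripotency factors in the table was 1104 to 1229 in D2 lines and 862 to 904 in B6 lines. That of the 6 primitive endoderm markers in it was 47.7 to 156 in D2 lines and 23.7 to 30.1 in B6 lines, with Gata6, Sox17, Sox7, Foxa2, Afp and Ttr not in that table; the part of these differences in the members' values was not tested.

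Promoter windows are shown for Aass and Hal, whose RNA differed most between the strains, although accessibility near Aass differed more inside the gene than here. Gldc is shown because its promoter accessibility followed its RNA over the BXD lines. The bases are those of the reference strain C57BL/6J from RefSeq (GRCm38.p6), 250 bases before to 50 after the start of the gene, 5′ to 3′ on the gene's strand; the D2 bases were not analysed here. Capitals mark matches to the CCAAT box, which reads as ATTGG when it lies on the opposite strand. They also mark matches to TATAA, which then reads as TTATA. Both motifs were searched on both strands, and the 2 matches to the second motif in the Hal window overlap each other. Aass lies at chr6:23072173-23132986 on the minus strand, Hal at chr10:93488768-93519304 on the plus strand and Gldc at chr19:30098447-30175429 on the minus strand (mm10).
Aass promoter, chr6:23132937-23133236, minus strand: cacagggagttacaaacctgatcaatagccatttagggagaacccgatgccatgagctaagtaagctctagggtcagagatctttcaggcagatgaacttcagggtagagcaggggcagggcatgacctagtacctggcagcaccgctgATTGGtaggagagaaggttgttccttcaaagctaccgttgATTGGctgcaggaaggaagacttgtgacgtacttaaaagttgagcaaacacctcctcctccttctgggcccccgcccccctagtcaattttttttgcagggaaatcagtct
Hal promoter, chr10:93488518-93488817, plus strand: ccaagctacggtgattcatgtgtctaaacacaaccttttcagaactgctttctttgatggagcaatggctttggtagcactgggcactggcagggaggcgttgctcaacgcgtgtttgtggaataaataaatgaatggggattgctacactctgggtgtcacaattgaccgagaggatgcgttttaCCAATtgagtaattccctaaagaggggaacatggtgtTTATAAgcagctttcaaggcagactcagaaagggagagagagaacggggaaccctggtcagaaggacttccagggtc
Gldc promoter, chr19:30175392-30175691, minus strand: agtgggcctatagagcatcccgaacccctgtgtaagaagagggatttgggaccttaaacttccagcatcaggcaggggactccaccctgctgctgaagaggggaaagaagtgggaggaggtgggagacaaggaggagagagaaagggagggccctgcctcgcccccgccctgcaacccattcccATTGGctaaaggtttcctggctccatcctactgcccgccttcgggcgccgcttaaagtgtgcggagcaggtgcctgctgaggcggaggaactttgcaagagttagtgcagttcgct
The Aass window held 2 CCAAT matches, Hal and Gldc 1 each, and Gcat and Shmt2 none; 37.4% of 32851 mouse promoter windows of the same length held CCAAT. Hal alone of the 5 members with a window held TATAA, which 24.9% of those windows held. A match is a description of letters, not a binding site. Tdh had no entry among these windows.

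Aass, the lysine enzyme, was nearly silent in B6 lines and clearly expressed in D2 lines, in both states. In ESCs its signal was 25.1, 48.5 and 35.6 in D2 lines, against 0.728, 0.694 and 0.756 in B6 lines. The lowest D2 line stood far above the highest B6 line. The means were 36.4 ± 11.7 in D2 and 0.726 ± 0.0309 in B6 (SD, n = 3 each), a 50.2-fold ratio of means and a difference of 4.39 (SE 0.209) on the log2(value + 1) scale on which every RNA difference here is given; this scale understates changes of low genes. EpiLCs gave 40.7, 40.5 and 42.9 in D2 lines, against 1.12, 1.67 and 1.72 in B6 lines. Again the strains did not overlap, with a 27.5-fold ratio of means and a log2 difference of 4.09 (SE 0.115).

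Hal, the histidine enzyme, differed the other way in ESCs. Its signal was 0.416, 0.774 and 0.645 in D2 lines, against 15.5, 17.9 and 17.99 in B6 lines. No D2 line came near a B6 line, and the B6 mean (17.1 ± 1.39) was 27.99-fold that of D2 (0.612 ± 0.181; SD, n = 3 each), a log2 difference of −3.49 (SE 0.145).

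Both genes of the threonine route were at similar levels in D2 and B6 ESCs, while Tdh was higher in D2 EpiLCs. Tdh (chr14:63492347-63509092, minus strand) read 449, 367 and 335 in D2 ESC lines and 409, 543 and 462 in B6 ESC lines, which overlapped (log2 difference −0.30, SE 0.131). In EpiLCs it read 86.9, 99.1 and 108 in D2 lines and 45.7, 49.1 and 49.0 in B6 lines. These did not overlap, and the D2 mean was 2.04-fold that of B6 (log2 difference 1.01, SE 0.088). Gcat (chr15:79030874-79038353, plus strand) read 63.6, 48.1 and 60.2 in D2 ESC lines and 65.7, 63.6 and 66.6 in B6 ESC lines, so that the highest D2 and the lowest B6 line all but touched (−0.20, SE 0.107). Gcat in EpiLCs was 76.8, 69.2 and 65.6 in D2 lines and 62.1, 63.9 and 64.0 in B6 lines, every D2 line being the higher (0.15, SE 0.079).

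The glycine and serine enzymes differed little. Gldc was 172, 158 and 203 in D2 ESC lines, against 155, 148 and 144 in B6 ESC lines (log2 difference 0.25, SE 0.099). EpiLC values of Gldc lay the other way round, at 282, 271 and 283 in D2 lines and 301, 308 and 288 in B6 lines (−0.10, SE 0.070). Neither state showed overlap of the strains for Gldc, although the gaps were small. Shmt2 (chr10:127517123-127522444, minus strand) overlapped in both states, with 230.5, 191 and 249 in D2 ESC lines and 214, 197 and 210.4 in B6 ESC lines, then 153, 166 and 159 in D2 EpiLC lines and 156, 136 and 158 in B6 EpiLC lines. In all, 4 of 6 members did not overlap between strains in ESCs, where 51.4% of all 12694 genes tested did not, and 4 of 5 in EpiLCs, where 63.7% of 12692 did not. By limma with Benjamini-Hochberg adjustment at 0.05, 37.6% of all genes passed in ESCs and 57.5% in EpiLCs; as the members were chosen from these contrasts, nothing is read from those counts. Gcat and Gldc, 2 of 5 members, lay apart without overlap in opposite directions in the 2 states, as did 8.92% of 11724 genes.

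**Figure D1:**
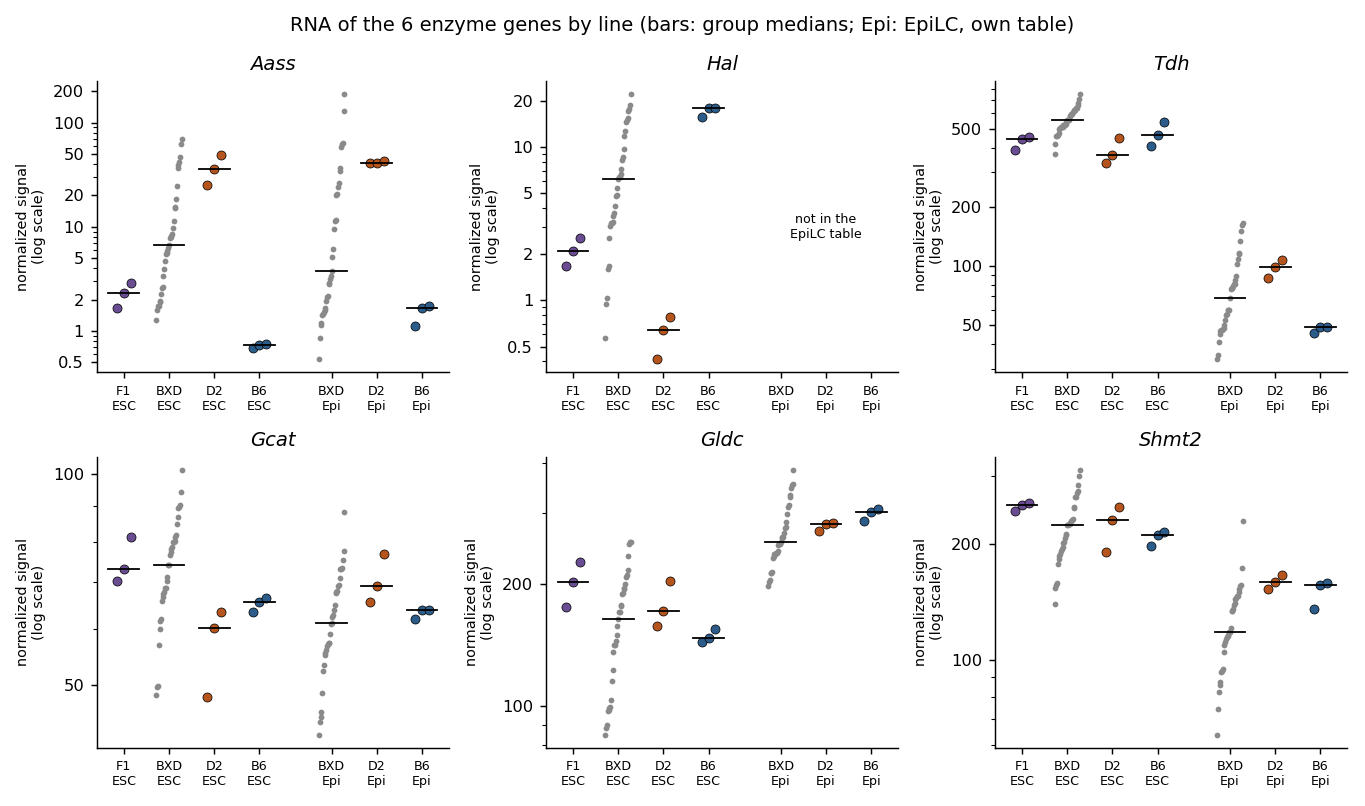
RNA signal of the 6 members (log axis) in each D2, B6, F1 and BXD line, in ESCs and EpiLCs (Epi); each point is 1 line, points are spread sideways by level, and the bar is the group median. Aass sits between 25.1 and 48.5 in D2 ESC lines and between 0.694 and 0.756 in B6 ESC lines, Hal is reversed, and the BXD ESC lines run from 1.27 to 69.9 for Aass.

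F1 lines hold both parental genomes, and their RNA was set against the mid-parent, the mean of D2 and B6 on the log2 scale; the parental lines are those that chose the members, while the F1 lines had no part in the choice. Aass and Hal both fell below the mid-parent, each on the side of the low parent. Aass read 2.30, 1.66 and 2.87 in F1 lines, against 25.2, 48.6 and 35.7 in D2 and 0.730, 0.696 and 0.757 in B6 in the same table. All 3 F1 lines lay between the parents and under the mid-parent value of 6.91. The difference from it was −1.29 (SE 0.184, adjusted p = 0.00314, limma with Benjamini-Hochberg adjustment); F1 was lower than D2 by −3.49 (adjusted p = 1.53e-06) and higher than B6 by 0.91 (adjusted p = 0.0142).

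Hal read 1.67, 2.53 and 2.09 in F1 lines, against 0.417, 0.776 and 0.646 in D2 and 15.6, 17.9 and 18.03 in B6. Each F1 line stood above every D2 line and below every B6 line. The difference from the mid-parent value of 4.40 was −0.81 (SE 0.128, adjusted p = 0.00583, limma), which with a pseudocount of 0.1 in place of 1 was −0.68 and did not pass (adjusted p = 0.0932). F1 was higher than D2 by 0.94 (adjusted p = 0.002) and lower than B6 by −2.56 (adjusted p = 8.17e-07, limma).

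The other members did not differ from the mid-parent at this threshold. Tdh was 442, 453 and 389 in F1 lines (difference 0.01, SE 0.109, adjusted p = 0.966). Gcat was 81.3, 70.2 and 73.1 in F1 lines, all 3 above every parental line, with 63.7, 48.2 and 60.3 in D2 and 65.8, 63.8 and 66.7 in B6 (0.29, SE 0.089, adjusted p = 0.107); against D2 alone it was higher by 0.39 (adjusted p = 0.0277). Gldc was 227, 176 and 202 in F1 lines (0.30, SE 0.095, adjusted p = 0.112) and higher than in B6 by 0.43 (adjusted p = 0.0213). Shmt2 was 253, 255 and 244 in F1 lines (0.22, SE 0.081, adjusted p = 0.168). Without line DAC203, Gldc and Shmt2 passed (adjusted p = 0.0218 and 0.0423). Thus 2 of 6 members differed from the mid-parent, where 3.29% of 12700 genes did. Among all genes, 17.9% differed between F1 and B6 and 15.7% between F1 and D2. Aass and Hal were chosen for large differences between the parents, so the share over all genes is not a like background for them. With parents this far apart F1 cannot lie near both, and the tests of Aass and Hal against each parent serve as description.

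Open chromatin near Aass differed most inside the gene, far from its start. The region with the largest ESC difference, chr6:23084869-23085782 in an intron 47.7 kb into the gene, had an ATAC signal of 4.97, 6.97 and 5.90 in D2 lines, against 0.761, 0.670 and 0.803 in B6 lines. Every D2 line was far above every B6 line (log2 difference 2.83, SE 0.171, adjusted p = 1.66e-10, limma on log2(signal + 0.1) with adjustment over all regions). The EpiLC region at the same place, chr6:23084850-23085776, read 4.05, 4.20 and 5.50 in D2 lines and 0.885, 0.613 and 0.672 in B6 lines, again with no overlap (2.51, SE 0.184, adjusted p = 4.95e-17).

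A stronger site lay beside it, at chr6:23088821-23091426 over a coding exon of Aass, singled out after its values were seen. It read 37.3, 39.4 and 38.7 in D2 ESC lines and 9.79, 11.5 and 10.6 in B6 ESC lines, without overlap (log2 difference 1.85, SE 0.0728, adjusted p = 6.32e-13, limma). P300 and POU5F1 had their largest difference near Aass on this same site. P300 signal at chr6:23088719-23091654 was 117.2 and 81.0 in D29 and D55, against 15.4 and 15.9 in B41 and B51 (2.56, SE 0.187, adjusted p = 9.29e-20, limma). POU5F1 signal at chr6:23088862-23091485 was 115.9 and 126 in D29 and D55, against 18.4 and 21.3 in B41 and B51 (2.55, SE 0.1499, adjusted p = 5.86e-61). With 2 lines per strain, limma rests mostly on the spread pooled over regions.

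This stretch is shown because 2 factors and the accessibility signal meet on it: 200 bases of the POU5F1 region, from the plus strand of the C57BL/6J reference (GRCm38.p6), chosen around the single match (capitals) to ATGNAAAT, a relaxed form of the octamer motif, on either strand.
Aass POU5F1 region, chr6:23089456-23089655, plus strand: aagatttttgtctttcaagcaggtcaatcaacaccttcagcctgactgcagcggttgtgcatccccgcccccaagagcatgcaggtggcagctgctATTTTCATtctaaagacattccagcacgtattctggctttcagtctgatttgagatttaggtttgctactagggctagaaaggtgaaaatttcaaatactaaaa
The whole region of 2624 bases held 1 such match, as 40.1% of 2965 POU5F1 regions of like length held at least 1, and no exact ATGCAAAT, which 16.5% of them held. The POU5F1 region in Hal held neither motif, against 26.9% and 10.3% of 8285 regions of its length. No match says only that these letters are not in this window.

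A further intron site of Aass, chr6:23079124-23080848, was higher in D2 ESCs too, at 17.9 ± 0.839 in D2 and 8.10 ± 0.935 in B6 lines (1.14, adjusted p = 6.63e-09, limma). The Aass promoter differed far less, with 8.09, 8.56 and 8.70 in D2 ESC lines and 5.68, 6.74 and 6.98 in B6 ESC lines (0.39, SE 0.103, adjusted p = 0.00479). In EpiLCs the promoter read 14.1, 12.3 and 13.1 in D2 lines and 13.2, 13.7 and 13.3 in B6 lines, which overlapped (−0.02, adjusted p = 0.781). Of 9 ESC regions within 50 kb of Aass, 6 were higher and none was lower in D2, where 46.9% of all ESC regions differed. In EpiLCs 4 of 5 were higher, where 58.2% of all EpiLC regions differed.

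TRIM28 signal around Aass differed in both directions. Beyond the 3′ end of the gene, chr6:23068166-23070186 read 6.55, 5.03 and 5.20 in D2 lines and 1.53, 2.18 and 1.43 in B6 lines (log2 difference 1.67, SE 0.243, adjusted p = 3.36e-07, limma). Inside the gene, chr6:23080924-23082096, named after its value was seen, was lower in D2 lines, at 1.95 ± 0.469, against 5.56 ± 0.839 in B6 lines (−1.48, adjusted p = 1.8e-06). In all, 3 of 11 regions near Aass were higher and 3 lower, where 38.1% of all TRIM28 regions differed.

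Hal showed lower accessibility in D2 lines over the promoter and the first part of the gene. Its promoter region, chr10:93488709-93489344, read 1.32, 1.11 and 1.62 in D2 ESC lines, against 2.89, 2.64 and 2.79 in B6 ESC lines (log2 difference −1.002, SE 0.180, adjusted p = 0.000145, limma). The largest difference lay 1.9 kb into the gene, chr10:93490296-93490995, with 3.61, 3.106 and 3.104 in D2 lines and 7.91, 7.46 and 6.77 in B6 lines (−1.15, SE 0.117, adjusted p = 1.76e-07). Neither region overlapped between strains. Of 16 ESC regions near Hal, 10 were lower and none was higher in D2, where 46.9% of all ESC regions differed. These regions extend over its neighbours Amdhd1, the third enzyme of histidine breakdown, and Ccdc38. Of 12 EpiLC regions, 9 were lower and 3 higher, where 58.2% of all EpiLC regions differed.

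P300 and POU5F1 were lower in D2 lines at the same intragenic site of Hal. POU5F1 signal at chr10:93490072-93491244 was 5.28 and 8.23 in D29 and D55, against 20.6 and 18.2 in B41 and B51 (log2 difference −1.42, SE 0.293, adjusted p = 5.8e-05, limma). P300 signal at chr10:93490278-93491318 was 3.82 and 4.59 in D29 and D55, against 15.4 and 16.6 in B41 and B51 (−1.71, SE 0.405, adjusted p = 0.00177); without B41 or B51 the adjusted p was 0.309 or 0.430. TRIM28 differed most near Hal in its neighbour Lta4h, at chr10:93470989-93473057, with 7.06, 6.35 and 5.08 in D2 lines and 28.5, 25.7 and 28.8 in B6 lines (−2.16, SE 0.136, adjusted p = 7.81e-17).

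Promoters of the threonine, glycine and serine genes differed by less than that of Hal. The Tdh promoter read 25.1, 25.6 and 25.6 in D2 ESC lines and 26.1, 27.6 and 25.96 in B6 ESC lines (−0.06, adjusted p = 0.45, limma). In EpiLCs, where Tdh RNA was higher in D2 lines, its promoter signal was 10.1, 9.36 and 10.00 in D2 lines and 10.1, 9.65 and 9.46 in B6 lines, which overlapped (0.01, adjusted p = 0.923). The EpiLC region with the largest difference near Tdh lay in an intron of its neighbour Fam167a, chr14:63459255-63461734, with 20.48, 20.3 and 18.8 in D2 lines, against 12.6, 12.4 and 13.4 in B6 lines (0.63, SE 0.0650, adjusted p = 5.65e-12). Another intron site of Fam167a, chr14:63453040-63453665, had the largest ESC difference near Tdh and was lower in D2, at 0.9747, 1.15 and 1.62 in D2 lines, against 3.70, 3.71 and 3.04 in B6 lines (−1.43, SE 0.188, adjusted p = 4.55e-06, limma). TRIM28 near Tdh was lower in D2 as well, at chr14:63460698-63464563 with 5.26, 7.76 and 8.16 in D2 lines and 15.7, 16.8 and 18.3 in B6 lines (−1.27, SE 0.149, adjusted p = 2.9e-09). The direction thus differed between these sites, none of which overlapped between strains.

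The Gcat promoter, which overlaps an exon of H1f0, did not differ in ESCs (log2 difference −0.00, adjusted p = 0.994, limma) and was lower in D2 EpiLCs, at 14.2, 15.7 and 13.8 in D2 lines and 19.5, 18.8 and 19.4 in B6 lines (−0.40, adjusted p = 5.18e-07). The Gldc promoter was higher in D2 ESCs, at 19.9, 18.1 and 17.7 in D2 lines and 15.3, 15.8 and 14.6 in B6 lines (0.28, SE 0.0739, adjusted p = 0.00416). In EpiLCs it was 24.5, 22.2 and 22.8 in D2 lines and 24.7, 26.4 and 26.2 in B6 lines (−0.15, adjusted p = 0.0189), a call that was lost with median-ratio scaling (adjusted p = 0.0977) and without 4 of the 6 lines taken singly. Shmt2 promoter signal was not called in ESCs (0.19, adjusted p = 0.202) and was lower in D2 EpiLCs, at 5.39, 4.81 and 5.39 in D2 lines, against 6.94, 6.92 and 6.67 in B6 lines (−0.39, SE 0.0980, adjusted p = 0.000587, limma).

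Within 50 kb of the 6 genes, 41 of 91 ESC regions passed (18 higher and 23 lower in D2), where 46.9% of all regions did, and 41 of 69 EpiLC regions (13 higher, 28 lower), where 58.2% did. For TRIM28 it was 14 of 56 regions (8 higher, 6 lower), where 38.1% of all regions passed; over all regions 18528 were higher and 17380 lower in D2, or 16792 and 18935 with median-ratio scaling. P300 passed in 6 of 40 regions, where 11.3% of all did, and POU5F1 in 5 of 39, where 10.8% did. Regions of Aass and Hal made up 3 of the 6 and 3 of the 5. P300 differences near Tdh (0.46, adjusted p = 0.0348) and Shmt2 (−1.03, adjusted p = 0.00244, limma) and the POU5F1 differences near Gcat (0.73, adjusted p = 0.00813) and Shmt2 (−0.41, adjusted p = 0.0496) each lost their call on leaving out a line, the last without B51, D29 or D55.

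F1 accessibility was tested against the mid-parent on the authors' log2 values. Around Aass, 7 of 18 regions were lower in F1 and none was higher, where 8.18% of all regions differed. The intron region chr6:23084869-23085782 read 0.888, 0.189 and 0.915 in F1 lines, against 2.35, 2.82 and 2.59 in D2 and −0.188, −0.345 and −0.121 in B6 (log2 difference from the mid-parent −0.52, adjusted p = 0.0394, limma). The site of P300 and POU5F1, chr6:23088821-23091426, lay at the mid-parent, with 4.39, 4.29 and 4.37 in F1 lines, 5.23, 5.31 and 5.28 in D2 and 3.31, 3.54 and 3.42 in B6 (0.00, adjusted p = 0.99). In both regions each F1 line lay between the parents.

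Upstream of Aass, the largest F1 difference was at chr6:23153897-23155143, where F1 lines (1.68, 2.33 and 1.76) lay below all D2 lines (2.85, 2.80 and 2.58) and all B6 lines (2.83, 2.89 and 2.87; −0.88, SE 0.113, adjusted p = 4.37e-06, limma). The Aass promoter in F1 read 2.67, 2.39 and 2.44 against 3.04, 3.12 and 3.14 in D2 and 2.53, 2.78 and 2.83 in B6 (−0.41, adjusted p = 0.00412). At Hal, neither the promoter (0.16, adjusted p = 0.555) nor the site 1.9 kb into the gene (−0.21, adjusted p = 0.245) differed from the mid-parent. Over the 6 genes, 20 of 141 regions passed, where 8.18% of all 241241 regions did; over all regions 11721 were higher and 8008 lower, or 18311 and 6620 after centring on the median region. Without F116, F117 or F124 the 20 became 8, 12 or 10.

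The BXD lines show how these levels fall out when both parental genomes are reshuffled; genotypes of the lines were not analysed here. Aass in the 33 BXD ESC lines ran from 1.27 (BXD125) over a median of 6.70 to 69.9 (BXD87), and in EpiLCs from 0.542 over 3.80 to 187. By the midpoint of the parents on the log2 scale, 16 lines lay on the D2 side in ESCs and 14 in EpiLCs. Of the 33 lines, 13 were on the D2 side in both states and 16 on the B6 side in both, while BXD154, BXD75, BXD84 and BXD85 changed side. No gap split the lines into separate clusters. Hal ran from 0.5684 over 6.16 to 21.96, with 13 lines on the D2 side.

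Tdh and Gcat in BXD ESCs often exceeded both parents, which Gcat in EpiLCs did not. The parental range rests on 3 lines per strain. How often BXD lines leave it was not computed over all genes, so nothing particular to the members is read from the counts below. Tdh ran from 374 over 553 to 748, with 17 of 33 lines above every parental line and none below every one, and Gcat from 48.4 over 74.2 to 101, with 25 above every parental line. In EpiLCs Tdh ran from 33.7 over 68.7 to 165, with 7 lines above and 4 below every parental line, while Gcat ran from 42.5 over 61.3 to 88.3, with 2 lines above and 17 below every parental line. Gldc ran from 85.1 over 164 to 254 in ESCs, with 7 lines above and 13 below every parental line. In EpiLCs Gldc ran from 198 over 254 to 384, with 8 lines above and 21 below every parental line. Shmt2 ran from 139 over 224 to 311 in ESCs, with 7 lines above and 8 below every parental line. In EpiLCs Shmt2 ran from 63.8 over 118 to 229, with 2 lines above and 21 below every parental line.

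Lines high in Aass as ESCs were high in Aass as EpiLCs. Over 33 lines its ESC and EpiLC levels had Pearson r = 0.85 and Spearman rho = 0.80 (permutation test with 100000 shuffles, both p = 1e-05, the smallest that number can give, adjusted p = 5e-05 over the 5 members in both tables), and r = 0.83 without the 2 lines farthest from the median. Shmt2 followed with r = 0.46 (permutation p = 0.0072, adjusted p = 0.018) and rho = 0.54 (p = 0.00145, adjusted p = 0.00362), and r = 0.56 without 2 lines. Gcat (r = 0.38, permutation p = 0.0283, adjusted p = 0.0389; rho = 0.35, p = 0.0443, adjusted p = 0.0553) and Gldc (r = 0.38, p = 0.0311, adjusted p = 0.0389; rho = 0.36, p = 0.0374, adjusted p = 0.0553) passed by r alone, and no longer without the 2 farthest lines (adjusted p = 0.0542 and 0.0952). No relation was detected for Tdh (r = −0.02, permutation p = 0.928; rho = −0.10, p = 0.577). The difference between these correlations was not tested, and the share of all genes with such a relation was not computed.

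RNA followed promoter accessibility in 3 of 11 relations of a member and a state over the 33 lines, measured in separate libraries of the same lines. The share over all genes was not computed, so nothing particular to the members is read from this count. Hal in ESCs had r = 0.56 (permutation p = 0.00062, adjusted p = 0.00326) and rho = 0.54 (p = 0.00137, adjusted p = 0.00502), with r = 0.53 without the 2 farthest lines. Gldc in ESCs had r = 0.57 (permutation p = 0.0004, adjusted p = 0.00326) and rho = 0.58 (p = 0.00041, adjusted p = 0.00225), with r = 0.50 without 2 lines. Shmt2 in EpiLCs had r = 0.55 (permutation p = 0.00089, adjusted p = 0.00326) and rho = 0.62 (p = 0.00022, adjusted p = 0.00225), with r = 0.54 without 2 lines. The other 8 relations had r of 0.06 to 0.31, with adjusted permutation p of 0.224 to 0.757, Aass in both states included.

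At the regions with the largest D2 to B6 difference, 12 relations were computed after those regions were seen. The members were taken up for RNA differences between D2 and B6, and these regions for differences in chromatin signal. The lines share linked segments, so a gene and a nearby region that both differ between the parents tend to vary together. The shuffles test only against no relation at all, and no action of a region on its gene is read from these p-values. Aass RNA followed its intron region most closely, with r = 0.94 and rho = 0.89 in ESCs (permutation, both p = 1e-05, adjusted p = 3e-05 and 4e-05; r = 0.93 without 2 lines) and r = 0.91 and rho = 0.86 in EpiLCs (both p = 1e-05; r = 0.89 without 2 lines). That region's signal ran from 1.04 over 2.49 to 8.38 in BXD ESC lines. The accessible site under P300 and POU5F1 gave r = 0.78 and rho = 0.76 with Aass RNA (permutation p = 1e-05 and 2e-05; r = 0.84 without 2 lines). Hal RNA had r = 0.80 and rho = 0.73 with the site 1.9 kb into the gene (permutation, both p = 1e-05; r = 0.73 without 2 lines).

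Shmt2 in ESCs ran against the region 1.6 kb upstream of its start, chr10:127523690-127524448, with r = −0.54 (permutation p = 0.00117, adjusted p = 0.00281) and rho = −0.62 (p = 0.00017, adjusted p = 0.000408), and r = −0.59 without 2 lines. In the parents that region read 0.585, 0.887 and 0.831 in D2 lines and 1.42, 1.47 and 1.47 in B6 lines (log2 difference −0.86, SE 0.236, adjusted p = 0.00571, limma). Over the BXD ESC lines it ran from 0.666 over a median of 1.70 to 7.88, so the median lay above every parental line. Gldc in EpiLCs reached r = 0.36 (permutation p = 0.0392, adjusted p = 0.0784; rho = 0.39, p = 0.0258, adjusted p = 0.0516). The remaining 6 relations, of Tdh and Gcat in both states, Gldc in ESCs and Shmt2 in EpiLCs, had r between −0.14 and 0.22 and did not pass.

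**Figure D2:**
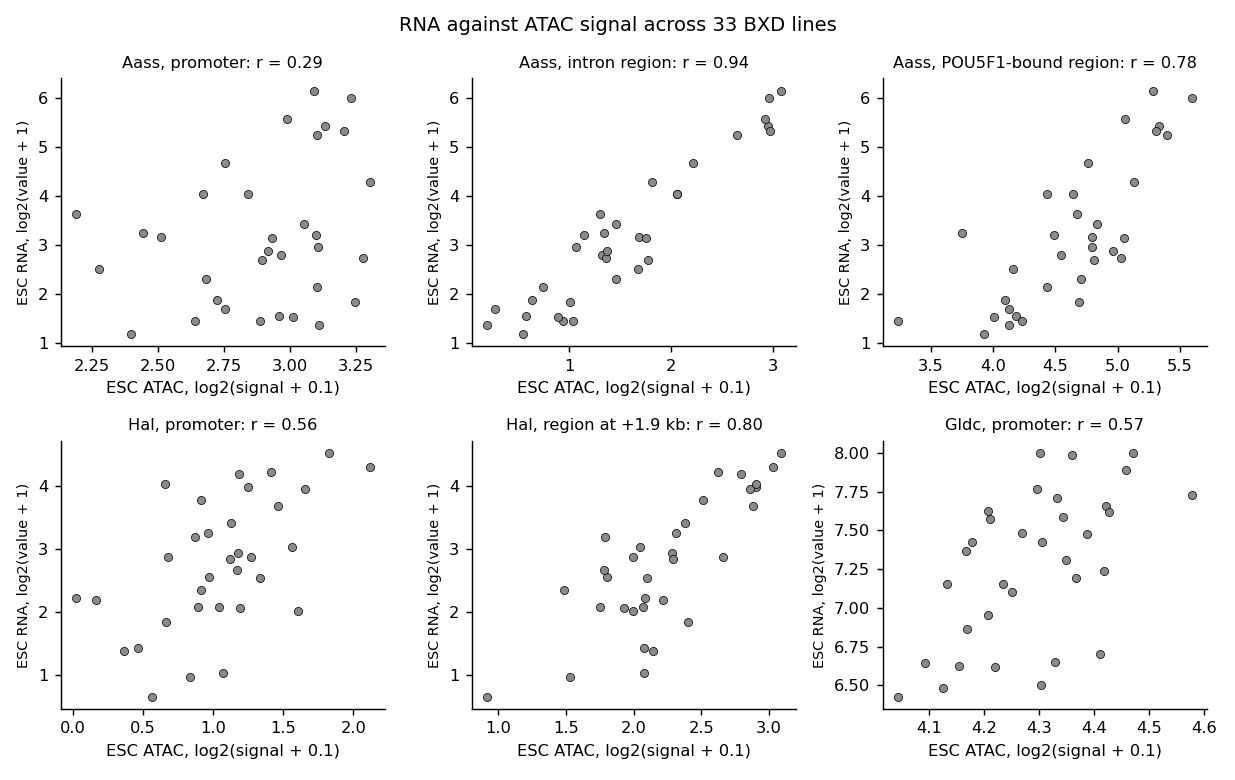
ESC RNA, log2(value + 1), against ESC ATAC signal, log2(signal + 0.1), over the 33 BXD lines (1 point per line) for regions of Aass, Hal and Gldc. Aass RNA follows the intron region (r = 0.94) and the site of POU5F1 (r = 0.78) and is scattered against its own promoter (r = 0.29), and Hal follows the site 1.9 kb into the gene (r = 0.80).

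The genes whose ESC levels ranked most like each member over the 33 lines, among 12729 others, were found by Spearman's rho and are given as a description. For Aass they were Scara5 (rho 0.70), Gm10772 (0.69) and Piga (0.68), for Hal Evc (0.76), Foxn4 (0.70) and Calb2 (0.68), and for Tdh Nrde2, Drosha and Exosc5 (0.81, 0.81 and 0.77). Scara5 and Foxn4 were near the floor, with median signals of 0.399 and 0.550. For Gcat they were Trappc12, Pycard and Cpsf1 (0.85, 0.85 and 0.84), of which Cpsf1 lies 2.44 Mb away on the same chromosome; the lines share linked segments. For Gldc they included Hesx1 and Phc1 (both 0.78), and for Shmt2 Anp32a and Prom1 (0.70 and 0.69). In EpiLCs the rho of the Aass partners was 0.56, 0.81 and 0.67, whereas for Drosha with Tdh it was −0.25. Among the members themselves the highest ESC rho was that of Gldc with Shmt2 (0.48), and in EpiLCs Tdh ran against Shmt2 (−0.54) and Gcat (−0.51).

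Partner enzymes were described through 7 lists of 104 genes, put together with earlier results of these data known. In ESCs 15 were higher and 18 lower in D2 of 78 tested (42.3%, against 37.6% of all genes; median log2 difference −0.09, against −0.04 over all genes). Of 16 serine and folate genes 7 were lower and none was higher: Mthfd1, the cytosolic trifunctional folate enzyme, averaged 219 ± 13.8 in D2 and 416 ± 22.7 in B6 lines (SD, n = 3 each; −0.92, adjusted p = 4.34e-05, limma), and Mthfd1l and Mthfd2 were lower by −0.54 and −0.41. Both partners of Gldc that changed were lower, Dld, the shared lipoamide dehydrogenase, by −0.81 (adjusted p = 0.000309) and Gcsh, the lipoyl carrier, by −0.48 (adjusted p = 0.00454), of 3 tested.

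The lysine list of 11 tested genes had 3 higher and 1 lower in D2 ESCs. Dhtkd1, which acts downstream of Aass on 2-oxoadipate, averaged 55.3 ± 10.4 in D2 and 25.7 ± 3.44 in B6 lines (1.07, SE 0.146, adjusted p = 0.000594, limma), and Crym, a ketimine reductase, was higher by 1.05 (adjusted p = 0.00126) and Phykpl by 0.46. Gcdh, glutaryl-CoA dehydrogenase further down the same route, was lower, at 33.6 ± 3.97 in D2 and 62.4 ± 3.91 in B6 lines (−0.88, adjusted p = 0.000244). None of the 4 listed histidine genes beside Hal was in the table with a testable level. Of 3 threonine and serine genes tested, Glyctk, glycerate kinase, was higher (0.63, adjusted p = 0.00693). In the methionine list 2 of 12 were higher (Gnmt 0.81, Cbs 0.69) and 3 lower, among them Ahcy (−0.58) and Mtap (−0.45). The list of other breakdown genes had 9 higher, led by Gls2 (0.85) and Pccb (0.82), and 5 lower, led by Oat (−0.87) and Bcat2 (−0.75), of 33.

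In EpiLCs 14 of 81 listed genes were higher and 38 lower in D2 (64.2%, against 57.5% of all genes; median −0.17, against 0.00 over all genes). Of 17 serine and folate genes 11 were lower and 1 higher: Psat1, which makes phosphoserine, averaged 223 ± 20.9 in D2 and 504 ± 41.9 in B6 lines (−1.17, SE 0.0907, adjusted p = 6.85e-07, limma), Mthfd2 was lower by −1.01 and Aldh1l2 and Mthfd2l by −1.73 and −1.24. In the methionine list 7 of 10 were lower, Cth, which makes cysteine from cystathionine, by −1.49 (adjusted p = 5.94e-06). Aldh18a1 (−1.28) and Bcat1 (−1.44) led the falls among other genes, of 36 with 14 lower and 10 higher; Aldh18a1 is known for making proline precursors, not for breakdown. Fah and Bckdha, of tyrosine and branched-chain breakdown, led the rises (1.52 and 1.11). The lysine list had 2 higher (Pipox 0.61, Hykk 0.58) and 5 lower, among them Gcdh (−0.63), of 12. Of 3 genes each, Glyctk was higher (0.54) and Dld lower (−0.54). Beside these values, a list of 14 genes of the ATF4 amino acid response, Atf4 itself included, had 10 lower, Chac1 by −2.04 and Trib3 by −1.09, and 1 higher. In ESCs 3 of the 14 were lower and 1 higher, where 37.6% of all genes were called. The part of this response in the enzyme values was not tested.

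Against the mid-parent, 6 of 78 listed genes were higher in F1 ESCs and none was lower (7.69%, against 3.29% of all genes; median 0.12, against 0.02 over all genes). They were Aldh4a1 (0.55, adjusted p = 0.0132, limma), Oat (0.39), Mthfd1l (0.37), Hibadh (0.34), Ahcy (0.33) and Glud1 (0.25, adjusted p = 0.0491), which act in proline, ornithine, folate, valine, methionine and glutamate metabolism.

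The EB library held 20134 cells, of which 16557 (82.2%) could be given to 1 of 12 hashes, lipid-anchored barcode oligos (Multiseq LMO, per the labels) that mark a cell's source; both EB tables share all 20134 cell barcodes. Hash names begin with D (7 hashes, 10957 cells), B (3 hashes, 3080 cells) or C (2 hashes, 2520 cells), and the labels do not define these letters, so the comparison below is between hash names, not strains. The median cell held 35108 UMIs (counted molecules). UMIs were summed per hash and tested with edgeR's quasi-likelihood test with Benjamini-Hochberg adjustment, under which 70.7% of 14795 genes differed. The labels do not say whether hashes are separate lines or cultures. These p-values therefore measure the spread between hashes of 1 pooled library, not a spread between lines. Gcat, Gldc and Shmt2 were higher in D hashes, and Tdh is given as a description.

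Gcat had 70.4, 69.4, 79.5, 73.4, 75.7, 76.2 and 77.6 CPM (its UMIs scaled to the same total in every hash) in D1, D2, D31, D32, D331, D332 and D333, against 40.4, 41.3 and 39.3 CPM in B1, B2 and B3. No D hash came near a B hash, with a log2 difference of 0.93 (SE 0.038, adjusted p = 5.77e-10, edgeR). Gldc had 15.6, 14.1, 19.98, 15.7, 17.03, 16.4 and 16.7 CPM in the D hashes, against 8.74, 8.31 and 8.85 CPM in the B hashes (0.98, SE 0.085, adjusted p = 4.62e-07). Shmt2 had 82.0, 72.7, 78.9, 71.6, 71.6, 68.7 and 70.5 CPM in the D hashes, against 53.0, 51.9 and 54.5 CPM in the B hashes (0.51, SE 0.056, adjusted p = 3.8e-06). Both were without overlap.

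Tdh was scarce in EBs, at 1.35, 1.94, 1.93, 2.36, 2.47, 0.282 and 1.58 CPM in the D hashes and 0.0742, 0.0340 and 0.440 CPM in the B hashes. D332 fell below B3, so the groups overlapped, with a log2 difference of 3.14 (SE 0.720) that ran from 2.72 to 4.88 when hashes were left out singly. With 3, 1 and 18 UMIs in B1, B2 and B3, Tdh passed the filter on low counts through its D hashes. Its difference is therefore a description without a test. Aass and Hal were nearly absent, with 99 and 73 UMIs in all cells, and did not pass the filter on low counts. Aass had 60 UMIs in D and 4 in B hashes, and Hal 41 and 7, but the D hashes hold more cells. Scaled per hash, Aass ran from 0.0899 to 0.230 CPM in D and 0.0244 to 0.0681 CPM in B hashes. Hal ran from 0.0165 to 0.183 CPM in D and 0.0244 to 0.136 CPM in B hashes, which overlapped. The D31 to D333 names may share a source. Summed as 1 sample, a choice made after seeing the data, the differences were 3.14 for Tdh, 0.90 for Gcat, 0.92 for Gldc and 0.57 for Shmt2. Those of Gcat, Gldc and Shmt2 were still called.

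**Figure D3:**
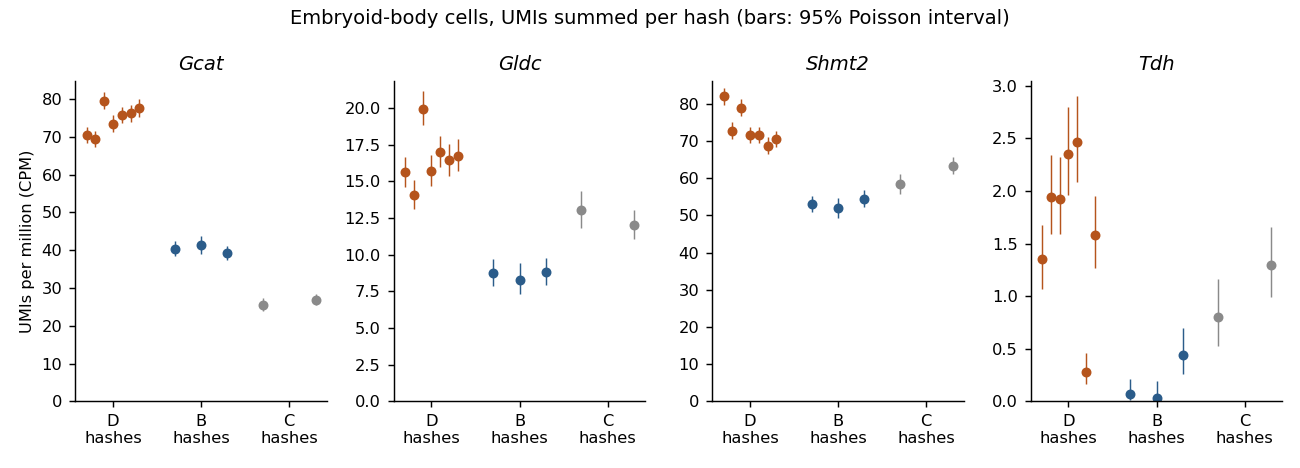
CPM of Gcat, Gldc, Shmt2 and Tdh in each hash of the EB library (7 D, 3 B and 2 C hashes, in the order of the text), with bars for the 95% exact Poisson interval, which covers counting error only. Gcat lies at 69.4 to 79.5 in D hashes and 39.3 to 41.3 in B hashes, and Tdh in D332 (0.282) lies below B3 (0.440).

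Cell makeup moved with the hash names, and its part in these differences was not tested as a whole. Summed over 8 markers each, mesoderm genes ran from 1006 to 1340 CPM in D hashes and 473 to 514 CPM in B hashes, endoderm genes from 1142 to 1599 in D and 809 to 854 in B, pluripotency genes from 77.7 to 182 in D and 30.4 to 41.3 in B, and endothelial genes from 236 to 298 in D and 373 to 438 in B. Within cells holding at least 5 of the 8 mesoderm markers and more of them than of any other list (7349 cells, 2975 of them at exactly 5 or ahead by only 1), Gcat ran from 69.7 to 73.8 CPM in D hashes and 37.8 to 38.5 CPM in B hashes, and Shmt2 from 64.5 to 73.9 in D and 45.5 to 47.3 in B, without overlap. Gldc overlapped there, at 5.47 to 8.05 CPM in D and 4.45 to 5.99 CPM in B hashes. Among 1885 cells picked by endothelial markers, Gcat ran from 37.8 to 44.8 CPM in D and 27.7 to 34.2 in B hashes, Gldc from 12.4 to 18.3 in D and 9.70 to 10.1 in B, and Shmt2 from 83.8 to 109 in D and 63.9 to 75.3 in B hashes, none overlapping.

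Enzyme levels also differed between cell classes. Classes hold unequal shares of the hashes, with 1037 D, 44 B and 73 C cells among those with endoderm markers and 4968 D, 810 B and 669 C cells among those with mesoderm markers, so values are given within the D hashes. There Gcat ran from 134 to 157 CPM in endoderm-marker cells and 69.7 to 73.8 CPM in mesoderm-marker cells, and Gldc from 71.8 to 98.2 CPM in endoderm-marker cells and 5.47 to 8.05 CPM in mesoderm-marker cells. Shmt2 ran from 109 to 138 CPM in D cells with primitive erythroid markers. Over all cells, Tdh was concentrated in 41 cells with pluripotency markers (10 of them at the cut; 18 in D, 1 in B and 3 in C hashes), where it reached 364 CPM (exact Poisson interval 340.2 to 390.1, counting error only) and which held 65.5% of its 1272 UMIs. In all, 51 cells with at least 5 Tdh UMIs held 91.2% of them, 27 of these in D hashes and 1 in a B hash.

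The partner lists were mostly higher in D hashes, with 48 of 85 tested genes higher and 16 lower (75.3%, against 70.7% of all genes; median 0.17, against 0.01). All 3 glycine cleavage partners tested were higher, Amt by 0.54, Gcsh by 0.30 and Dld by 0.28 (adjusted p = 4.01e-05, 3.01e-07 and 2.32e-06, edgeR). Of 17 serine and folate genes 10 were higher, led by Aldh1l1 (1.62) and Shmt1 (1.17), the cytosolic counterpart of Shmt2, and 2 lower. The lysine list had 5 higher, led by Dhtkd1 (1.46), and 4 lower, led by Aadat (−3.89) and Pipox (−1.40), of 12. Sdsl (1.30) and Grhpr (0.82) were higher and Thnsl2 (−0.73) lower of 5 threonine and serine genes, and 6 of 11 methionine genes were higher and 3 lower. Of 37 other breakdown genes 22 were higher, led by Aspg (2.28) and Fah (2.16), and 6 lower, among them Arg1 (−1.76).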

How the data were processed

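RNA was deposited by the authors as a normalized signal per gene, with library totals from 902250 to 1115270 in the ESC table, 875065 to 1230020 in the EpiLC table and 904148 to 1117600 in the table with F1 lines, and no counts. ATAC and TRIM28 were deposited as signal per region; the values, not a header, show reads divided by a library factor: whole reads were recovered for 100% of values within 0.01, and edgeR on those reads called 54390 ESC ATAC, 56985 EpiLC ATAC and 37156 TRIM28 regions. Recovery of reads was not tried for P300 and POU5F1 signal. The F1 ATAC table holds log2 values deposited by the authors. The EB library holds UMI counts and hash barcode counts, deposited as whole-number counts. The submitters' processing notes name the mm10 build, HISAT2 2.0.5, Cell Ranger, MACS 1.4.2 and Bowtie 1.0.0. No source used here states the strand setting of the counting.

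The members and all gene lists were chosen with earlier results of these data known. Differences of D2 minus B6, and F1 minus the mean of both, were fitted with limma 3.58.1 under R 4.3.3 after taking log2; 1 was added first to RNA and to the ChIP signal of P300 and POU5F1, and 0.1 to ATAC and TRIM28 signal, while the F1 ATAC values were taken as deposited. Genes needed a mean of at least 0.5, and p-values were adjusted over every gene or region of a table by Benjamini-Hochberg at 0.05. Regions were kept within 50 kb of a gene, and promoter regions within 1 kb of its start. Named regions were the promoter and the region of largest called difference in each assay, named list genes up to 4 called genes of a list with the largest difference in either direction, and likest genes the 3 of highest rho; some genes these rules select are not reported here. BXD relations used 100000 shuffles (Python 3.11.15, numpy 2.4.6, scipy 1.17.1, pandas 2.3.3, matplotlib 3.10.9). A cell took the hash with at least 10 counts and 3 times the next; no doublet caller was run, and cells with mixed hashes were left out. UMIs per hash were tested with edgeR 4.0.16 (filterByExpr, quasi-likelihood) and, as an alternative, DESeq2 1.42.0. The fits were tested on simulated data. Columns without a sample numbered 0. The 2 input libraries were not used.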

Additional observations from a re-analysis of the deposited data

Results flagged for a closer look

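For 4 of 10 items compared between the states, every D2 line differed from every B6 line one way in ESCs and the opposite way in EpiLCs; the difference between the states was not tested, since the tables were scaled separately. These were 2 of 5 genes by RNA, where 8.92% of 11724 genes tested in both states did the same, and 2 of 5 promoters, where 32.9% of 10717 promoters did. Gcat RNA was lower in D2 than in B6 ESCs and higher in D2 than in B6 EpiLCs, and the log2 difference in EpiLCs minus that in ESCs was 0.35. In ESCs the highest D2 line (63.55) and the lowest B6 line (63.62) of Gcat all but touched. Gldc RNA went the other way, by −0.34. Gldc promoter accessibility changed in the same direction as its RNA, by −0.44, and Shmt2 promoter accessibility by −0.58; the Shmt2 promoter was not called in ESCs (adjusted p = 0.202, limma), and the Gldc promoter call in EpiLCs was lost with median-ratio scaling (adjusted p = 0.0977). For each of the 6 genes the 7 D hashes were searched for 1 hash far from the others by Dixon's criterion, and 0 were found.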

How the results depend on the processing

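Of the alternatives other than leaving out lines, 385 were rated the same, 8 lost a call, 3 moved and 0 reversed. For tested results, the same meant an unchanged call, and a change of sign without a call also counted as the same. For RNA differences given without a test it meant a shift smaller than the spread between lines. For counts of calls it meant only a limited change. A pseudocount of 0.1 gave 5.42 for Aass and −4.63 for Hal in ESC RNA and 4.72 for Aass in EpiLC RNA, and −0.68 for Hal in F1. The correlation of ESC with EpiLC RNA without the 2 farthest lines was 0.38 for Gcat and 0.32 for Gldc, neither called, and 0.36 for Gldc with median-ratio scaling. Leaving out lines singly, F1 minus mid-parent ran from 0.21 to 0.40 for Gldc and from 0.17 to 0.26 for Shmt2, both called without DAC203 only. Regions called near the members ran from 1 to 13 for P300 (6 with all lines; 1 without B41 or B51, 13 without D55), 2 to 5 for POU5F1 (5 with all lines; 2 without D55) and 8 to 27 for F1 ATAC (20 with all lines; 8, 12 and 10 without F116, F117 and F124). Over all features the calls ran from 1222 (without B51) to 11399 (without D55) for P300, against 4839, from 1716 (without D55) to 4497 for POU5F1, against 4656, from 127 (without F124) to 1183 (without DAC203) for F1 RNA, against 418, and from 8427 (without F116) to 27060 for F1 ATAC, against 19729. In ESC RNA the split of 2194 higher and 2578 lower in D2 became 2461 and 2287 with median-ratio scaling. Centring the F1 ATAC values called 24 regions near the members, against 20. The causes were not tested.

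Replicate numbers only name lines and do not pair them: the deviations of same-numbered lines correlated between −0.391 and 0.0441. With a replicate block, 11 listed genes were higher and 15 lower in ESCs, 12 higher and 36 lower in EpiLCs, and 42, 41 and 17 regions were called for ESC ATAC, EpiLC ATAC and TRIM28; over all genes 3470 were called in ESCs, against 4772, and 6901 in EpiLCs, against 7293. RNA depth is unknown, and P300 and POU5F1 rest on 2 lines per strain.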

Other observations

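The 2 C hashes of the EB library, which enter no comparison, gave Gcat at 25.5 and 26.9 CPM in C1 and CB, below all D hashes and all B hashes. Gldc was 13.1 and 12.01 CPM, Shmt2 58.4 and 63.3 CPM and Tdh 0.801 and 1.30 CPM in C1 and CB. Summed primitive erythroid markers ran from 3175 to 4045 CPM in the C hashes, 162 to 552 CPM in the D hashes and 64.2 to 249 CPM in the B hashes.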
